A study of Mus musculus with 12 samples.

Results

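A set of 36 genes of G2 phase and mitosis was followed in B16 F1 melanoma growing in the mouse brain. They were taken by symbol, as the rows of the read count table whose Ensembl identifier maps to a list of named regulators and structural proteins of mitosis. All 36 were found among the 47069 genes in the table, and all 36 were among the 15925 genes with enough reads to be tested. B16 F1 is a pigmented melanoma line from C57BL/6 mice, and all 12 tumors were implanted in the brain of C57BL/6 mice and taken at day 9. The study asks whether antibodies against PD-1 and CTLA-4 act on melanoma in the brain in a way that depends on melanoma elsewhere in the body. It has 4 groups of 3 libraries, each 1 intracranial tumor sample: mice with an intracranial tumor only given control IgG, mice with an intracranial tumor only given anti-PD-1 plus anti-CTLA-4 (called therapy here), mice with an intracranial and an extracranial tumor given IgG, and mice with both tumors given therapy. The last pair of groups is called dual-tumor mice. The sequenced tissue was the intracranial tumor in every group, and the controls carry the same implanted line and an antibody. The labels do not give the site of the extracranial tumor, the antibody doses or the age of the mice.

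A cell that leaves G2 activates the kinase CDK1 through cyclins A and B, rebuilds its microtubules into a spindle, attaches each chromosome through its kinetochore, and waits at the spindle checkpoint before the anaphase-promoting complex (APC/C) destroys cyclin B and separates the chromosomes. Most of these genes are transcribed mainly in G2 and M, through MuvB complexes with B-MYB and FOXM1 at promoters that often hold a cell cycle homology region (CHR) and CCAAT boxes bound by NF-Y. In bulk tumor RNA their level is commonly read as a measure of how much of the RNA comes from dividing cells. Fewer dividing cells and less RNA per cell cannot be told apart in these libraries, and neither can tumor cells and dividing cells of other kinds.

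Promoter windows are shown for 5 of the 8 members found with both elements upstream, since these elements are known to take part in switching on such genes. Sequence and start sites are those of RefSeq on GRCm38.p6, and each line gives up to 150 bases before the first listed start, 5′ to 3′ on the strand of the gene, with bases inside the annotated gene left out. Capitals mark the core CHR (TTTGAA, or TTCAAA where it lies on the other strand) and the CCAAT box (CCAAT or ATTGG). Mki67 (minus strand) is read from chr7:135716380-135716529, Top2a (minus) from chr11:99024190-99024339, Cdk1 (minus) from chr10:69352939-69353062, Cdc20 (minus) from chr4:118437353-118437493 and Kif11 (plus) from chr19:37376232-37376381.
Mki67: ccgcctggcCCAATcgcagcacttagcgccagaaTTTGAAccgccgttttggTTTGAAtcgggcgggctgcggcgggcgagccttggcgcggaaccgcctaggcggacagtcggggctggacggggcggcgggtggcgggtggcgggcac
Top2a: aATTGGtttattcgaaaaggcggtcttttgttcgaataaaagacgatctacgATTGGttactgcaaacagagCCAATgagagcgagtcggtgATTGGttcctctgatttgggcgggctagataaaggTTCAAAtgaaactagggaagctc
Cdk1: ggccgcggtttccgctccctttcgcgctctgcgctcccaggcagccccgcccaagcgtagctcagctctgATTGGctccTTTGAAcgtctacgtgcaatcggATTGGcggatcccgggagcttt
Cdc20: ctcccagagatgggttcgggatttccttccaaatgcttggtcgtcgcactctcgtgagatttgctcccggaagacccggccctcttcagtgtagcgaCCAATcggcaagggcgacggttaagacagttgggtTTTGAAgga
Kif11: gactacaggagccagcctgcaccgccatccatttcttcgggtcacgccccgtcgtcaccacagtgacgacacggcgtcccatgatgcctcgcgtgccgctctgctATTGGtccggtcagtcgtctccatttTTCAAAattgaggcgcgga

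RefSeq promoters were matched for 31 members (Ccna2, Aurkb, Kif20a, Tpx2 and Dlgap5 were not matched). For 21 of the 31, the 40 bases after the start lay in a transcript of the gene. In the 250 bases before the start, 25 of the 31 (80.6%) held at least 1 CCAAT box on either strand, against 34.5% of 27025 genes with a promoter in the same table. The core CHR was in 9 of 31 (29%), against 16.3% of all, and both elements were in 8 of 31 (25.8%), against 5.73% of all. Matches of these motifs can share bases with each other. A match of these letters is a description of the window and not a measured binding site.

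Library totals ran from 18427495 to 22294182 reads, and the 36 genes together took 0.0575% to 0.497% of them. Replicates of a group correlated at 0.917 to 0.986 over log2 CPM (reads scaled to library size). The labelled melanoma identity was matched by 11 pigment cell genes, whose mean log2 CPM lay between 9.76 and 10.38 in all 12 libraries. Replicate 2 of the IgG dual-tumor mice stood apart from its group: its 12 neuron genes lay at a mean log2 CPM of -0.58, against 4.31 and 4.88 in the other replicates. The sample name of this library also has another suffix, which the labels do not explain. Median fold changes of the 36 genes that rest on it are given below with and without it. These are for therapy in dual-tumor mice, for both tumors under IgG and for the interaction of therapy and tumor setting. Single-gene fold changes, shares of the IgG mean of dual-tumor mice, results scaled on Pmel and other gene lists are given only with it. The series text calls the samples biological triplicates, and p-values measure the spread between these samples.

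The 36 genes were lowest in all 3 tumors from dual-tumor mice under therapy. Their mean log2 CPM was 6.60, 6.04 and 6.26 under IgG and 6.80, 6.91 and 6.64 under therapy in intracranial-only mice, and 6.14, 6.77 and 5.80 under IgG and 5.38, 3.69 and 4.91 under therapy in dual-tumor mice. As group means these are 6.30 ± 0.28, 6.78 ± 0.14, 6.24 ± 0.50 and 4.66 ± 0.87 (SD, n = 3 each). The therapy libraries of dual-tumor mice were below all 9 other libraries in 36 of 36 members, as were 14.5% of all tested genes. They lay below the IgG libraries of dual-tumor mice without overlap in 36 of 36 members (20.1% of all tested genes) and below the therapy libraries of intracranial-only mice in 36 of 36 (28.5% of all tested genes). Replicate 2 of this group was the lowest of the 12 libraries for all 36 genes. Its members had a median of 16.3% of the IgG mean of dual-tumor mice, against 52.8% in replicate 1 and 39% in replicate 3. That IgG mean includes IgG replicate 2, the highest of its group at 6.77, which lowers these shares. At the other end, the same 5 libraries were the highest for all 36 genes: replicate 1 of the IgG intracranial-only group, the 3 therapy replicates of the intracranial-only group, and replicate 2 of the IgG group with both tumors.

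**Figure D1:**
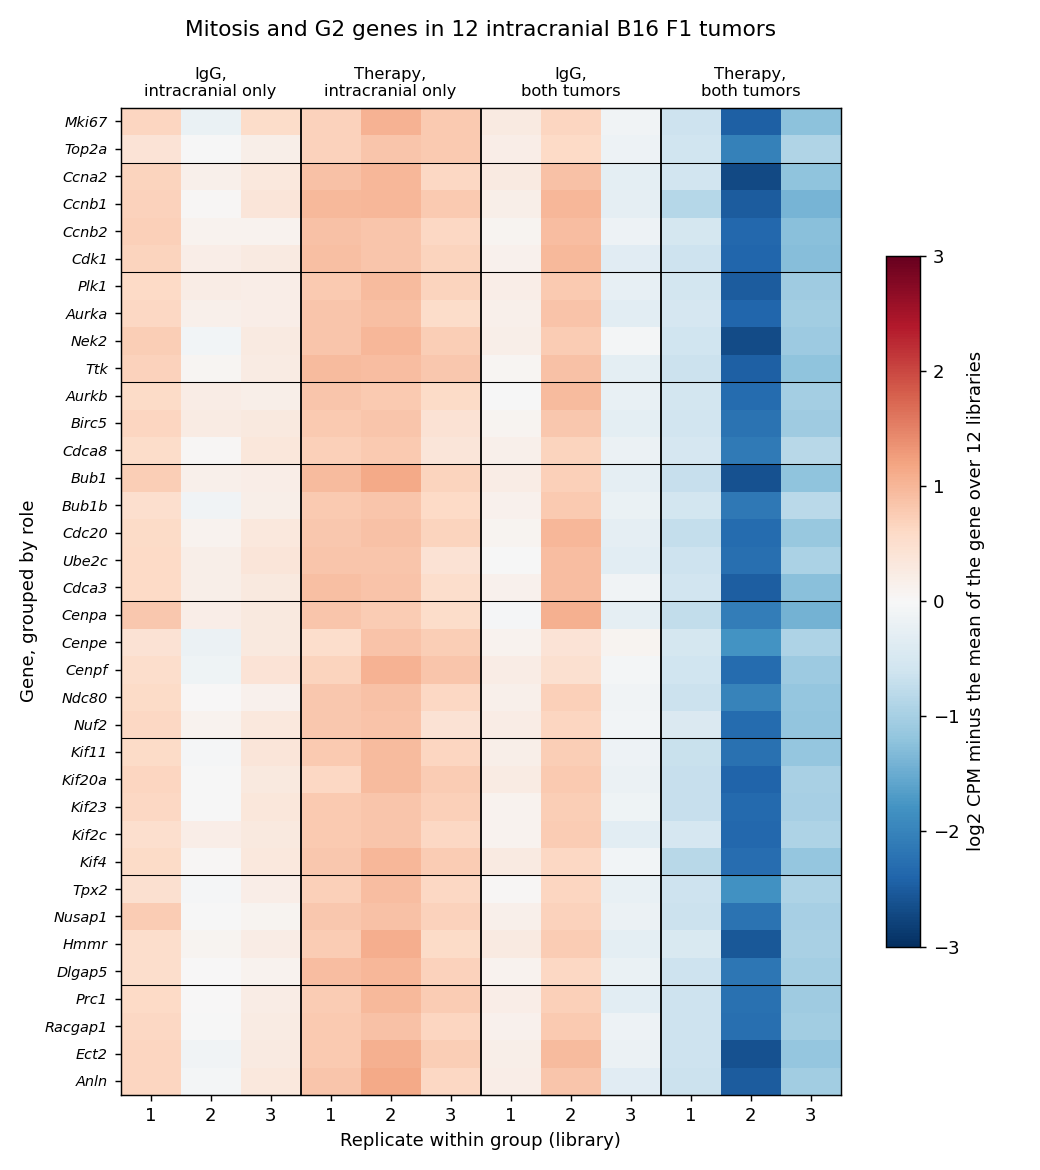
Level of each of the 36 genes (rows, grouped by role) in each of the 12 libraries (columns, 3 replicates in each of 4 groups), as log2 CPM minus the mean of that gene over the libraries, red above and blue below. The 3 therapy libraries of dual-tumor mice are blue in every row, and replicate 2 is the darkest of them.

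Per length of transcript, the members spanned a wide range of abundance and kept their extremes in every group. Top2a was the most abundant by FPKM (read counts scaled to library size and gene length), at 256 on average under IgG and 105 under therapy in dual-tumor mice. Ttk, a checkpoint kinase also known as MPS1, was the least abundant, at 10.4 and 3.64 FPKM in the same groups. The median member had 41.4 FPKM under IgG and 15.8 under therapy in dual-tumor mice, and 43.2 and 56.2 FPKM in intracranial-only mice.

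The proliferation marker Mki67 and topoisomerase IIα (Top2a), which untangles sister chromatids, are chromosome proteins of cycling cells. Mki67 (ENSMUSG00000031004, chromosome 7, 135689784 to 135716361, GRCm38) was at 299.7, 167 and 279 CPM under IgG and 307, 396 and 329.6 CPM under therapy in intracranial-only mice, and 231, 299 and 178 CPM under IgG and 124, 35.1 and 81.3 CPM under therapy in dual-tumor mice. Its therapy libraries in dual-tumor mice lay below every other library, and its intracranial-only therapy libraries lay above all other libraries without passing the test against their IgG controls (0.47 ± 0.39, adjusted p = 0.658). Mki67 was lower under therapy than under IgG in dual-tumor mice by a log2 fold change of -1.56 ± 0.39 (standard error, edgeR quasi-likelihood test, adjusted p = 0.0498), which is 2.95-fold. P-values were adjusted over all tested genes, and a gene passed, or was called, where the adjusted p was under 0.05. For therapy in dual-tumor mice the adjusted p of all 36 genes lay between 0.0498 and 0.0648. A member that passed there and one that did not are therefore not shown to differ from each other. Under therapy it was 4.3-fold lower in dual-tumor mice than in intracranial-only mice (-2.10 ± 0.40, adjusted p = 0.00458). Top2a (ENSMUSG00000020914, chromosome 11, 98992943 to 99024189) was at 487, 364 and 412 CPM under IgG and 593, 648 and 627 CPM under therapy in intracranial-only mice, and 420.3, 555 and 328 CPM under IgG and 239.9, 90.2 and 195 CPM under therapy in dual-tumor mice. Its libraries separated in the same way, with log2 fold changes of -1.31 ± 0.31 for therapy in dual-tumor mice (adjusted p = 0.0498) and -1.83 ± 0.31 for both tumors under therapy (adjusted p = 0.00455).

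Cyclins and CDK1, which drive entry into mitosis, held the member with the largest difference. Ccnb1, the cyclin B that is destroyed at anaphase, was at 119, 76.3 and 94.4 CPM under IgG and 146, 147 and 126 CPM under therapy in intracranial-only mice, and 83.0, 146 and 61.6 CPM under IgG and 41.0, 13.2 and 28.0 CPM under therapy in dual-tumor mice. The highest therapy library of dual-tumor mice stood below the lowest of the other 9, which was replicate 3 of their IgG controls. Ccnb1 fell with therapy in dual-tumor mice by 1.82 ± 0.40 on the log2 scale (3.54-fold, adjusted p = 0.0498) and was 5.09-fold lower with both tumors than with the intracranial tumor only under therapy (-2.35 ± 0.41, adjusted p = 0.00455). Cdk1, the kinase partner of cyclins A and B, was at 130.1, 93.8 and 98.8 CPM under IgG and 153, 146 and 129 CPM under therapy in intracranial-only mice, and 89.3, 162 and 64.9 CPM under IgG and 53.0, 15.7 and 34.0 CPM under therapy in dual-tumor mice. Its log2 fold changes were -1.62 ± 0.41 (adjusted p = 0.0498) for therapy in dual-tumor mice and -2.06 ± 0.42 (adjusted p = 0.00488) for both tumors under therapy. Ccna2, the S and G2 cyclin, and Ccnb2, another B-type cyclin, had fitted differences of -1.60 ± 0.45 and -1.57 ± 0.41 for therapy in dual-tumor mice, just outside the threshold (adjusted p = 0.0544 and 0.0512), while both fell in the comparison under therapy (-2.09 ± 0.45 and -1.99 ± 0.42). Reads of Ccnb1 could in part belong to 4 near-identical gene copies, so its level is uncertain to that extent. Over all libraries 2 of these copies held 4 and 8 reads, and no reads of the other two were analysed here.

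The mitotic kinases Plk1, Aurka, Nek2 and Ttk act on centrosomes, spindle poles and kinetochores. Plk1, which promotes mitotic entry and cytokinesis, was at 105, 80.4 and 79.7 CPM under IgG and 119.5, 134 and 110.2 CPM under therapy in intracranial-only mice, and 79.1, 121 and 58.3 CPM under IgG and 47.4, 12.3 and 33.0 CPM under therapy in dual-tumor mice. Aurka, which matures centrosomes, was at 92.1, 66.7 and 68.4 CPM under IgG and 107, 111 and 87.5 CPM under therapy in intracranial-only mice, and 66.6, 108 and 47.9 CPM under IgG and 41.9, 11.5 and 28.9 CPM under therapy in dual-tumor mice. In both genes replicate 2 of the therapy dual-tumor mice was the lowest library, at 12.3 and 11.5 CPM. Under therapy both were lower with both tumors, with log2 fold changes of -1.97 ± 0.41 and -1.89 ± 0.42 (adjusted p = 0.00512 and 0.00598). For therapy against IgG in dual-tumor mice the fitted differences were -1.48 ± 0.41 and -1.43 ± 0.41 with adjusted p of 0.0533 and 0.0569, and those of Nek2 and Ttk were -1.56 ± 0.43 and -1.56 ± 0.41 (adjusted p = 0.0532 and 0.0521).

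The chromosomal passenger complex, in which the kinase Aurkb with survivin (Birc5) and borealin (Cdca8) corrects faulty chromosome attachments, held the gene that differed least between tumor settings under therapy. Aurkb was at 109.6, 85.0 and 82.6 CPM under IgG and 131, 126 and 109.7 CPM under therapy in intracranial-only mice, and 73.1, 141 and 63.1 CPM under IgG and 49.7, 14.8 and 36.1 CPM under therapy in dual-tumor mice. Birc5 was at 103, 78.0 and 81.3 CPM under IgG and 114, 118 and 90.0 CPM under therapy in intracranial-only mice, and 70.5, 116 and 53.8 CPM under IgG and 44.6, 14.3 and 31.6 CPM under therapy in dual-tumor mice. Cdca8 was at 69.3, 48.9 and 60.1 CPM under IgG and 77.2, 81.2 and 61.2 CPM under therapy in intracranial-only mice, and 52.9, 75.6 and 41.9 CPM under IgG and 33.5, 11.0 and 26.8 CPM under therapy in dual-tumor mice. All 3 genes kept the therapy libraries of dual-tumor mice apart from the rest, and the gap between the highest of these and the lowest other library was narrowest in units of CPM for Cdca8. With both tumors under therapy Cdca8 was 3.07-fold lower (-1.62 ± 0.36, adjusted p = 0.00591), the smallest such difference among the 36 genes. Its difference for therapy in dual-tumor mice was -1.25 ± 0.35 (adjusted p = 0.0548).

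Spindle checkpoint and APC/C genes control the exit from metaphase. Bub1, a checkpoint kinase at kinetochores, was at 88.9, 59.2 and 60.9 CPM under IgG and 103, 117 and 84.6 CPM under therapy in intracranial-only mice, and 61.5, 86.5 and 44.2 CPM under IgG and 32.7, 8.65 and 22.9 CPM under therapy in dual-tumor mice. Cdc20, the APC/C activator that the checkpoint restrains, was at 102, 74.1 and 85.0 CPM under IgG and 121, 127 and 109 CPM under therapy in intracranial-only mice, and 72.7, 137 and 57.3 CPM under IgG and 42.0, 13.9 and 31.4 CPM under therapy in dual-tumor mice. Ube2c, the ubiquitin-conjugating enzyme of the APC/C, was at 94.7, 70.3 and 80.1 CPM under IgG and 112, 112 and 84.8 CPM under therapy in intracranial-only mice, and 62.5, 119 and 50.1 CPM under IgG and 40.8, 13.1 and 32.6 CPM under therapy in dual-tumor mice. The intracranial-only therapy libraries of Cdc20 lay above all of their IgG controls, whereas those of Bub1 and Ube2c overlapped them. Cdc20 fell with therapy in dual-tumor mice (-1.61 ± 0.39, adjusted p = 0.0498). Bub1 (-1.58 ± 0.41, adjusted p = 0.0511) and Ube2c (-1.42 ± 0.40, adjusted p = 0.0551) did not pass, though their fitted differences were close to that of Cdc20. Under therapy Bub1 was 4.73-fold, Cdc20 4.09-fold and Ube2c 3.56-fold lower with both tumors. The checkpoint protein Bub1b and Cdca3, a trigger of mitotic entry, had -1.75 ± 0.37 and -2.02 ± 0.41 in the same comparison.

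Kinetochore and centromere proteins link chromosomes to microtubules. Cenpa, the histone H3 variant of centromeres, was at 99.6, 65.0 and 70.4 CPM under IgG and 102, 97.0 and 83.7 CPM under therapy in intracranial-only mice, and 55.8, 119.8 and 47.2 CPM under IgG and 34.2, 13.6 and 21.4 CPM under therapy in dual-tumor mice. Cenpe, the kinesin that moves chromosomes to the spindle equator, was at 56.8, 37.6 and 51.6 CPM under IgG and 61.2, 76.5 and 70.1 CPM under therapy in intracranial-only mice, and 45.6, 55.9 and 44.6 CPM under IgG and 29.3, 12.2 and 22.2 CPM under therapy in dual-tumor mice. Cenpf, a large kinetochore protein of G2 and M, was at 101, 64.6 and 94.0 CPM under IgG and 112, 145 and 124 CPM under therapy in intracranial-only mice, and 81.5, 98.2 and 67.3 CPM under IgG and 46.2, 14.3 and 33.0 CPM under therapy in dual-tumor mice. In replicate 2 under therapy with both tumors Cenpe kept 25% of the IgG mean of dual-tumor mice, the highest share of any member in that library. In dual-tumor mice Cenpa, Cenpe and Cenpf fell with therapy, with log2 fold changes of -1.68 ± 0.39, -1.20 ± 0.27 and -1.40 ± 0.35 (adjusted p = 0.0498 for each). Ndc80, which with Nuf2 forms the microtubule-binding NDC80 complex, fell as well (-1.46 ± 0.32), and Nuf2 lay at -1.41 ± 0.38 with an adjusted p of 0.0523.

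The mitotic kinesins slide, bundle or shorten spindle microtubules. Kif11, which pushes spindle poles apart, was at 116, 75.6 and 100.3 CPM under IgG and 133, 150.4 and 121 CPM under therapy in intracranial-only mice, and 88.1, 129 and 69.4 CPM under IgG and 48.5, 16.4 and 34.6 CPM under therapy in dual-tumor mice. All 3 of its intracranial-only therapy libraries lay above their IgG controls, and all 3 therapy libraries of dual-tumor mice lay between 16.4 and 48.5 CPM. Kif11 fell with therapy in dual-tumor mice (log2 fold change -1.52 ± 0.35) and was lower with both tumors under therapy (-2.03 ± 0.36; adjusted p = 0.0498 and 0.00455). Kif4, a chromosome-bound kinesin, fell in these comparisons as well (-1.60 ± 0.32 and -2.16 ± 0.32). Kif20a and Kif23, kinesins of the central spindle, fell with therapy in dual-tumor mice (-1.53 ± 0.38 and -1.47 ± 0.36). Kif2c, a microtubule depolymerase, stood at -1.34 ± 0.39 there, outside the threshold (adjusted p = 0.0579).

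Tpx2, Nusap1, Hmmr and Dlgap5 nucleate and stabilize spindle microtubules. Tpx2, the activator of aurora A, was at 148, 102 and 119.6 CPM under IgG and 174, 198 and 160.3 CPM under therapy in intracranial-only mice, and 108, 163 and 90.2 CPM under IgG and 68.3, 29.6 and 55.6 CPM under therapy in dual-tumor mice. Dlgap5, also called HURP, was at 52.4, 36.3 and 38.6 CPM under IgG and 68.7, 71.5 and 58.3 CPM under therapy in intracranial-only mice, and 38.9, 55.8 and 31.6 CPM under IgG and 23.5, 8 and 17.8 CPM under therapy in dual-tumor mice. Both had intracranial-only therapy libraries above their IgG controls without overlap, and Dlgap5 had the largest fitted difference of any member there (0.64 ± 0.33, adjusted p = 0.448). In dual-tumor mice Tpx2 and Dlgap5 fell with therapy, with log2 fold changes of -1.23 ± 0.30 and -1.36 ± 0.34, and so did Nusap1 (-1.42 ± 0.36). Hmmr, a spindle-bound hyaluronan receptor, had -1.40 ± 0.43 and the highest adjusted p of the 36 genes, 0.0648.

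Genes of the central spindle and cytokinesis complete the list. Prc1, which bundles the antiparallel microtubules of the midzone, was at 101, 66.8 and 77.4 CPM under IgG and 112, 131 and 113 CPM under therapy in intracranial-only mice, and 76.6, 109 and 52.8 CPM under IgG and 42.9, 14.1 and 31.5 CPM under therapy in dual-tumor mice. Ect2, the exchange factor that activates RhoA at the cleavage furrow, was at 103, 61.1 and 78.7 CPM under IgG and 113, 137 and 108 CPM under therapy in intracranial-only mice, and 74.1, 127 and 58.1 CPM under IgG and 42.2, 10.7 and 29.4 CPM under therapy in dual-tumor mice. For Ect2 the therapy libraries of dual-tumor mice lay below all other libraries. Prc1 fell with therapy in dual-tumor mice (-1.43 ± 0.37, adjusted p = 0.0498), as did Racgap1, the GTPase activator that forms centralspindlin with Kif23 (-1.46 ± 0.37), while Ect2 (-1.66 ± 0.44, adjusted p = 0.0515) and the furrow scaffold anillin, Anln (-1.50 ± 0.43, adjusted p = 0.0555), did not pass. With both tumors under therapy all of them fell, from -1.93 ± 0.38 for Racgap1 to -2.12 ± 0.44 for Ect2.

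In dual-tumor mice, therapy went with lower levels of mitotic genes. Of the 36 members 19 passed as lower and 0 as higher, against 4.14% of all tested genes that were called lower (660 of 15925). The median member log2 fold change was -1.47, a 2.76-fold difference, with a range from -1.82 for Ccnb1 to -1.20 for Cenpe, while the median of all genes was 0.02. By role, the calls covered both proliferation and chromosome genes, 2 of 4 cyclin and CDK1 genes, 0 of 4 mitotic kinases, 0 of 3 passenger complex genes, 2 of 5 checkpoint and APC/C genes, 4 of 5 kinetochore genes, 4 of 5 kinesins, 3 of 4 spindle assembly genes and 2 of 4 cytokinesis genes. The members with and without a call differed little in size: the adjusted p of all 36 lay between 0.0498 and 0.0648, and all 36 had an unadjusted p under 0.05. The count therefore sat on the threshold. It was 0 when any of 9 single libraries was left out (replicates 1 and 3 of the IgG and all 3 of the therapy intracranial-only groups, replicates 1 and 2 of the IgG and replicates 2 and 3 of the therapy groups with both tumors), 36 without replicate 3 of the IgG or replicate 1 of the therapy dual-tumor mice, and 36 with DESeq2 or limma. It was also 0 with relative log expression size factors, without the filter on low counts and with the compared groups fitted alone. Each of these fits with 0 members called also called 0 of all tested genes. Without replicate 2 of the IgG group with both tumors the median member stood at -1.16, and without replicate 2 of the therapy group with both tumors at -1.12.

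Under therapy, tumors of dual-tumor mice had lower mitotic gene levels than tumors of intracranial-only mice throughout the list. All 36 members were lower by edgeR, against 21% of all tested genes called lower (3345 of 15925). The median member log2 fold change was -1.98, or 3.94-fold, from -2.35 for Ccnb1 to -1.62 for Cdca8, with adjusted p between 0.00455 and 0.0067. All 36 remained called when any 1 of the 12 libraries was left out, with medians between -2.41 and -1.67. With the mean of neuron genes as a covariate, 0 members and 0 of all 15925 genes were called. The neuron mean log2 CPM was 4.38 to 6.07 in these dual-tumor libraries and -1.54 to 0.25 in the intracranial-only ones. Because these ranges do not overlap, that fit can hardly separate neuron RNA from tumor setting. The therapy libraries of dual-tumor mice are the same as in the comparison before. Cyclin and CDK1 genes had a median of -2.07, and passenger complex genes one of -1.83. The 36 differences lay within 2 standard errors of the median member in every case.

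**Figure D2:**
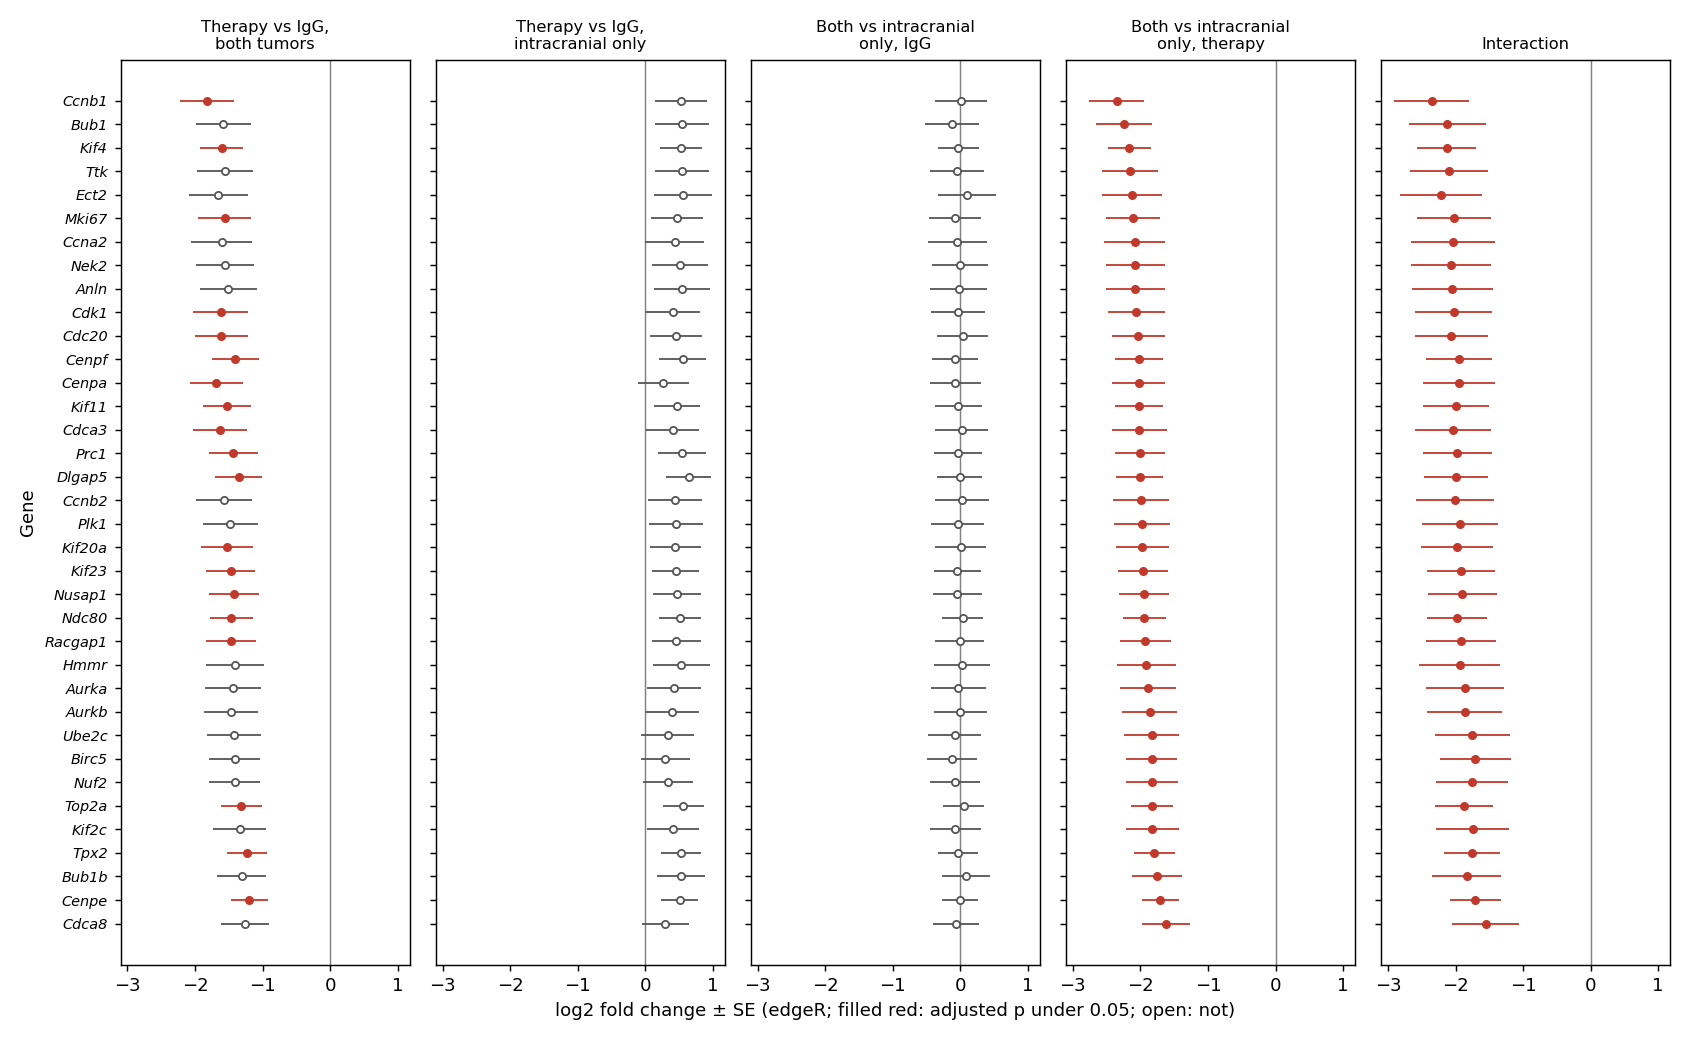
Log2 fold change (x axis) with its standard error for each of the 36 genes (y axis, ordered by the difference between tumor settings under therapy) in the 5 comparisons, from edgeR fitted over all genes; filled red points have an adjusted p under 0.05. All points lie left of 0 for therapy in dual-tumor mice, for both tumors under therapy and for the interaction, and right of 0 but open for therapy in intracranial-only mice.

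In intracranial-only mice, no mitotic gene passed the test for therapy, and the fitted values lay on the other side of 0. By edgeR 0 of 36 members were called, as were 0% of all tested genes (0 of 15925). At an unadjusted p under 0.05 there were 2152 genes, among them 0 members. The median member stood at 0.47, from 0.26 for Cenpa to 0.64 for Dlgap5, with 36 of 36 above 0 and adjusted p from 0.448 to 0.805. The 3 therapy libraries lay above the 3 IgG libraries without overlap in 22 of 36 members, as did 8.78% of all tested genes. When these 6 libraries were fitted alone, Top2a was called as higher (log2 fold change 0.57, adjusted p = 0.039), 1 of 22 genes called higher in that fit (0.151% of 14560), which called 796 lower. In it 30 of 36 members had an unadjusted p under 0.05.

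Under IgG, the extracranial tumor made no difference that the test could detect. By edgeR 0 of 36 members were called, with 0% of all tested genes called (188 genes had an unadjusted p under 0.05, with 0 members among them). The median member log2 fold change was -0.03, from -0.12 ± 0.37 for Birc5 to 0.10 ± 0.42 for Ect2, and all adjusted p were 1. Without replicate 2 of the IgG dual-tumor mice the median was -0.33, from -0.61 to -0.11, with 0 members called and adjusted p from 0.903 to 0.962. With 1 of the 12 libraries left out it ran from -0.33 to 0.18, so its sign was not stable. The standard errors of 0.27 to 0.44 leave room for differences of that size in either direction.

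In the main fit, the therapy effect on these genes differed between tumor settings by the interaction term. This term is the log2 fold change for therapy in dual-tumor mice minus that in intracranial-only mice. By edgeR all 36 members were lower in it, against 9.93% of all tested genes (1581 of 15925), with a median of -1.96, from -2.35 for Ccnb1 to -1.55 for Cdca8, and adjusted p between 0.0321 and 0.0472. Mki67 had -2.03 ± 0.55 (adjusted p = 0.0336) and Top2a -1.88 ± 0.43 (adjusted p = 0.0321). The interaction shares its libraries with the comparisons above and is not a separate set of mice. These calls were lost with single libraries: 0 members passed without replicates 2 or 3 of the IgG or any replicate of the therapy intracranial-only group, replicate 1 of the IgG group with both tumors, or replicates 2 or 3 of the therapy group with both tumors. Those fits also called 0 of all tested genes. Without replicate 2 of the IgG group with both tumors 12 members passed, against 825 of 16367 genes called lower, and the member median was -1.64. With the neuron mean as a covariate 0 members and 0 of all tested genes passed, and the member median was -0.72.

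Pmel, the melanosome fibril protein of pigment cells, was used as a scale for melanoma RNA, without a test of how well it follows melanoma content. It was at 5085, 6298 and 6931 CPM under IgG and 6953, 4798 and 5699 CPM under therapy in intracranial-only mice, and 7311, 5402 and 6592 CPM under IgG and 7843, 7654 and 7297 CPM under therapy in dual-tumor mice. Its libraries overlapped between therapy and IgG in dual-tumor mice, and it did not pass there (0.24 ± 0.18, adjusted p = 0.336) or between tumor settings under therapy (0.39 ± 0.18, adjusted p = 0.0954). For every 1000 reads of Pmel, the 36 genes together had 811, 445 and 477 reads under IgG and 678, 1079 and 762 under therapy in intracranial-only mice, and 418, 864 and 362 under IgG and 228, 73.7 and 178 under therapy in dual-tumor mice. The ratio in every therapy library of dual-tumor mice was below all 9 others for the sum and for 36 of 36 single members. Mean Pmel was highest in this group, at 7598 CPM, which also lowers the ratio. Ccnb1 had 11.4, 27.1 and 9.35 reads per 1000 Pmel reads under IgG and 5.22, 1.72 and 3.84 under therapy in dual-tumor mice.

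With libraries scaled so that Pmel is equal, all 36 members stayed below 0 for therapy in dual-tumor mice, for both tumors under therapy and in the interaction, but the calls moved. This scaling shifts the median of all genes to -0.24 for therapy in dual-tumor mice, -0.39 for both tumors under therapy and -0.29 for the interaction, and member values are to be read against that shift. For both tumors under therapy, 36 of 36 members were called lower, against 31% of all tested genes, with a median of -2.41. For the interaction 34 of 36 were called lower (all but Cdca8 and Ube2c), against 3.69% of all tested genes. For therapy in dual-tumor mice 0 of 36 passed, with a median of -1.78 and adjusted p from 0.0824 to 0.0869. That test called 0 of all genes too, and all 36 members had an unadjusted p under 0.05.

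**Figure D3:**
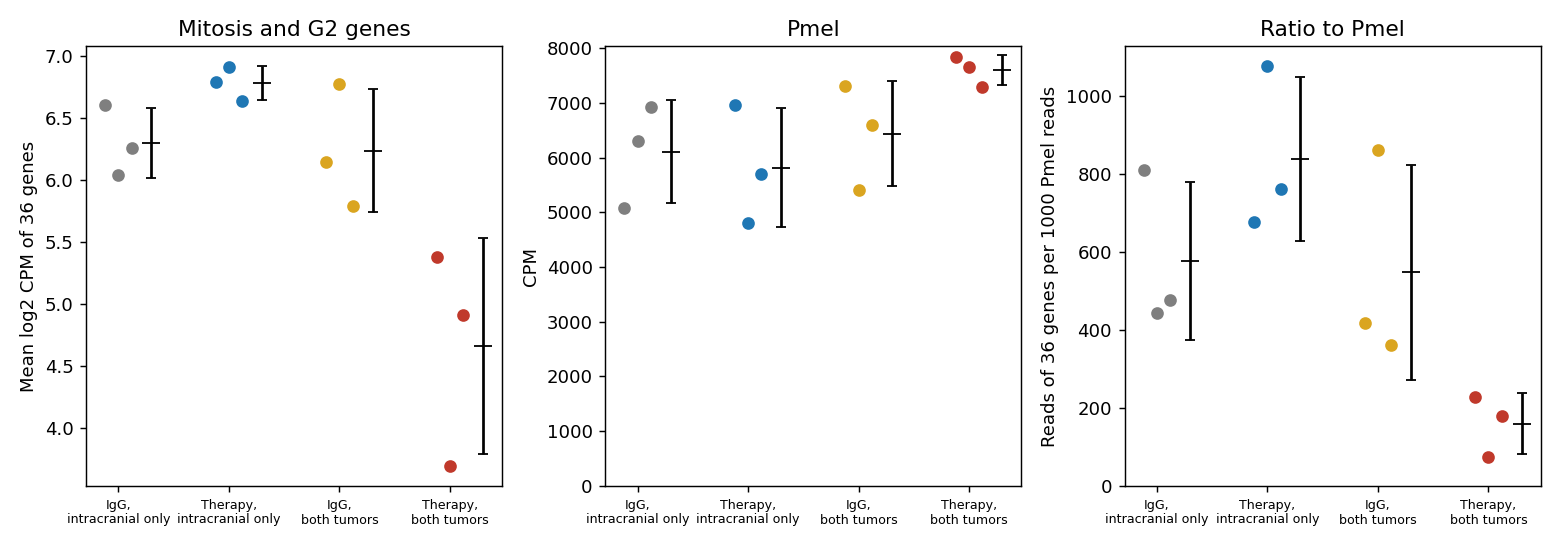
Mean log2 CPM of the 36 genes, CPM of Pmel, and reads of the 36 genes per 1000 Pmel reads (y axes) in the 4 groups (x axis); points are libraries, and the dash with bars is the mean ± SD of 3. Pmel lies between 4798 and 7843 CPM in all libraries, while the ratio of the 36 genes to Pmel is 73.7 to 228 under therapy in dual-tumor mice and 362 or more elsewhere.

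Markers of brain and immune cells also differed between the groups. The 12 neuron genes had a mean log2 CPM of 4.51, 3.14 and 4.72 under IgG and 0.25, -1.23 and -1.54 under therapy in intracranial-only mice, and 4.31, -0.58 and 4.88 under IgG and 4.38, 6.07 and 5.90 under therapy in dual-tumor mice. The 4 libraries lowest in neuron RNA were among the 5 libraries highest in all 36 members. For both tumors under therapy 12 of 12 neuron genes were called higher, as were 10 of 10 oligodendrocyte, 7 of 8 astrocyte, 8 of 8 microglia, 6 of 8 macrophage and 9 of 10 T cell genes, against 24.4% of all tested genes called higher (3886 of 15925). Of 8 endothelial genes 4 were called higher and 1 lower, and of 5 red blood cell genes 0 were called. Of 11 pigment cell genes 1 was called higher, with a list median of 0.10. For therapy in dual-tumor mice 0 of 12 neuron, 2 of 10 oligodendrocyte, 0 of 8 astrocyte, 2 of 8 microglia, 1 of 8 macrophage, 0 of 10 T cell, 1 of 8 endothelial, 0 of 5 red blood cell and 0 of 11 pigment cell genes were called higher, against 1.24% of all tested genes (198 of 15925), and none lower. For therapy in intracranial-only mice the neuron list had a median of -5.25, with 0 of 12 genes called and 12 of 12 at an unadjusted p under 0.05. The T cell genes were at a mean log2 CPM of 2.50, 3.46 and 3.48 under therapy in dual-tumor mice and between -2.55 and 1.33 in the other 9 libraries.

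With the neuron mean as a covariate in edgeR, 0 members and 0 of all genes passed in any of the 5 comparisons. The member median was -1.05 for therapy in dual-tumor mice and -1.02 for both tumors under therapy. It was -0.72 for the interaction and -0.32 for therapy in intracranial-only mice. In that order, 36, 4, 0 and 0 members had an unadjusted p under 0.05. The neuron mean did not overlap between tumor settings under therapy, or between therapy and IgG in intracranial-only mice. In those comparisons the fit can hardly separate neuron RNA from group. The part of neuron, glial or T cell RNA in these results was not tested.

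**Figure D4:**
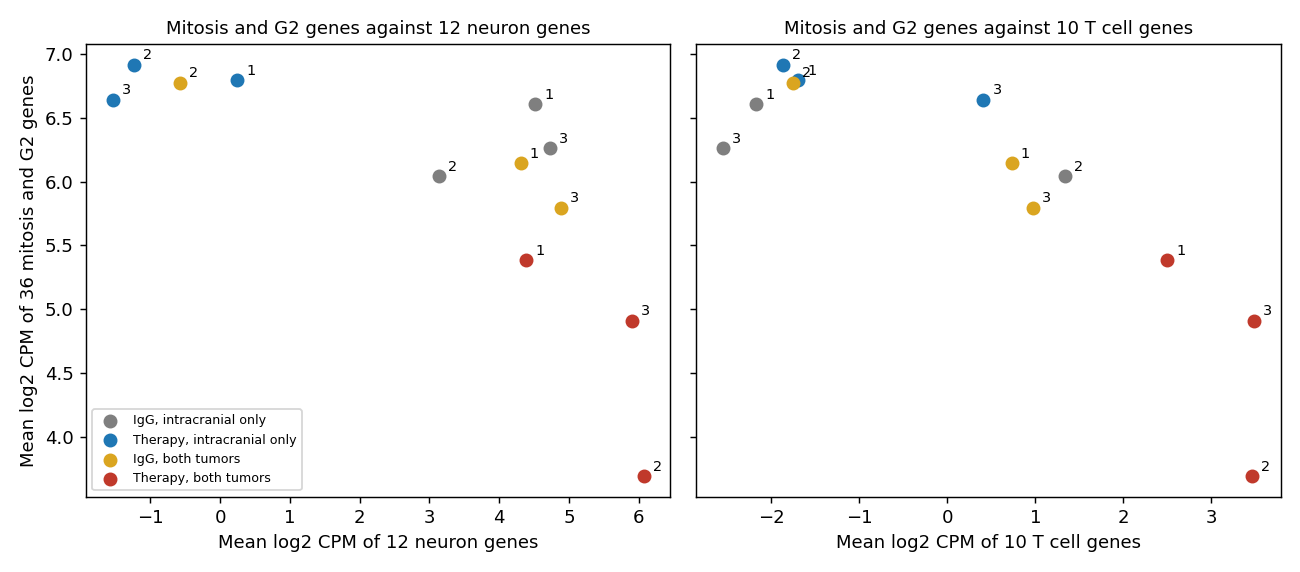
Mean log2 CPM of the 36 genes (y axis) against the mean log2 CPM of 12 neuron genes (left) and 10 T cell genes (right) in the 12 libraries, colored by group and numbered by replicate. The therapy libraries of dual-tumor mice have the lowest mitotic levels and the highest T cell levels, and replicate 2 of the IgG group with both tumors lies among the intracranial-only therapy libraries on the neuron axis.

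Other genes of the cell cycle followed the same groups. Of 54 further mitosis genes, 32 were called lower for therapy in dual-tumor mice (0 higher, median -1.42), against 4.14% of all tested genes. For both tumors under therapy 53 were called lower (median -1.82), against 21%, and in the interaction 49 (median -1.86), against 9.93%. Foxm1 and Mybl2, whose products switch on many of the members, were lower with both tumors under therapy (log2 fold changes -1.70 ± 0.31 and -1.74 ± 0.35) and with therapy in dual-tumor mice (-1.32 ± 0.31 and -1.46 ± 0.35, adjusted p = 0.0498 for each). In the comparison under therapy, log2 fold changes were -2.28 ± 0.34 for Cdc25c, the phosphatase that activates CDK1, and -1.68 ± 0.26 for Wee1, the kinase that restrains CDK1. Of 30 genes of S phase and replication, 20 were called lower for therapy in dual-tumor mice (median -1.35), against 4.14% of all tested genes. For both tumors under therapy 30 were called lower (median -1.66), against 21%, and in the interaction 25 (median -1.69), against 9.93%. For therapy in dual-tumor mice, no adjusted p in either list was below 0.0498, so these calls also sat on the threshold. Mcm5, a subunit of the replicative helicase, and Pcna, the DNA polymerase clamp, had -1.83 ± 0.38 and -1.42 ± 0.28 under therapy, and Lig1, the replicative ligase, had -1.71 ± 0.27. No gene of either list was called for therapy in intracranial-only mice.

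Inhibitors and G1 regulators had no common direction. Of 18 listed genes 17 were tested (Cdkn2a had too few reads), and for both tumors under therapy 3 were called higher and 4 lower, with a median of 0.07. These shares (17.6% and 23.5%) are near those of all tested genes, of which 24.4% were called higher and 21% lower. Btg2, an antiproliferative gene, was at 4.16, 9.23 and 5.37 CPM under IgG and 2.87, 5.31 and 3.31 CPM under therapy in intracranial-only mice, and 6.31, 5.30 and 6.44 CPM under IgG and 8.72, 17.0 and 16.4 CPM under therapy in dual-tumor mice, and it was higher under therapy with both tumors (log2 fold change 1.87 ± 0.37, adjusted p = 0.00476). The cyclin-dependent kinase inhibitors Cdkn2b and Cdkn2c were also called higher (2.76 ± 0.80 and 0.71 ± 0.17). Cdkn1a, the p21 inhibitor, was lower rather than higher (-1.60 ± 0.38, adjusted p = 0.00796), as were Rbl1 (-0.96 ± 0.16), which encodes the pocket protein p107, Ccng1 (-0.67 ± 0.15) and Cdk4 (-0.72 ± 0.20). For therapy in dual-tumor mice only Rbl1 of the 17 passed (-0.67 ± 0.16, adjusted p = 0.0498), and Cdkn1a did not (-0.93 ± 0.38, adjusted p = 0.118). That is 5.88% of the list, near the 4.14% of all tested genes called lower. In the interaction Btg2 was called higher, 5.88% of the list against 12.1% of all tested genes. Rbl1 and Ccng1 were called lower there, 11.8% of the list against 9.93% of all tested genes.

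Because the strand setting of the counting is not given, reads of overlapping genes on opposite strands may be shared. There were 10 members that share exon bases with a gene on the other strand in the GRCm38 annotation: Ccna2, Plk1, Nek2, Cdca8, Cdc20, Ube2c, Kif20a, Kif4, Nusap1 and Prc1. Without these 10, the median of the 26 other members was -1.46 for therapy in dual-tumor mice, with 14 called lower. For both tumors under therapy it was -1.97, with 26 called lower. Of all tested genes, 4.14% and 21% were called lower in these comparisons. The 14 calls sat on the threshold, as did those of the full list.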

How the data were processed

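RNA-seq was run on 12 intracranial B16 F1 tumors in 4 groups of 3. Per the labels' protocols, an RNAqueous-Micro kit gave the RNA and a NEBNext Ultra RNA kit the libraries. The authors deposited a table of raw read counts per Ensembl gene and a table of FPKM values. The submitters' processing notes name TopHat2 2.0.12, Bowtie2 2.2.3, HTSeq 0.6.1 with GRCm38 and mm10 as builds, while annotation release and strand setting are not given in the sources used here.

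From the counts, edgeR 4.0.16 in R 4.3.3 was run with TMM factors, filterByExpr (minimum count 10, minimum total 15) and a quasi-likelihood fit of 4 group means over all 12 libraries, for 5 comparisons. P-values were adjusted by Benjamini-Hochberg over 15925 genes and called at 0.05. Each standard error was the size of the log2 fold change over the root of its F statistic. Log2 CPM used a prior count of 2, and log2 FPKM a pseudocount of 1. The common dispersion was 0.112. No pair of replicates matched within sampling noise (chi-square per degree of freedom at least 15.4). Replicates were numbered in accession order and not paired. The fit was tested on simulated data.

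The members and lists were chosen with earlier results of these data known. All 36 members are named; values in every library are given for 14 chosen members and those with the largest and smallest difference in each comparison, and up to 3 genes with the smallest p are named from each other cell cycle list with a call. The values of 1 gene that this rule names are not reported here. Alternatives were DESeq2 1.42.0, limma 3.58.1 (voom, and trend on FPKM), other scalings (size factors, library totals, Pmel, pigment genes), no filter, the compared groups alone, the neuron mean as a covariate, and each library left out. In the other lists, 4 symbols were matched through a synonym. Promoter sequences are from RefSeq (GRCm38.p6), and gene positions from a GRCm38 annotation.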

Additional observations from a re-analysis of the deposited data

Results flagged for a closer look

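By the interaction term of edgeR, the effect of therapy on the mitotic genes differed between dual-tumor and intracranial-only mice in 36 of 36 members. The difference in log2 fold change was negative for each gene. Of all tested genes, 9.93% were called lower in the interaction (1581 of 15925). The proliferation and chromosome genes had -2.03 for Mki67 and -1.88 for Top2a. Cyclins and CDK1 had -2.04 for Ccna2, -2.35 for Ccnb1, -2.01 for Ccnb2 and -2.03 for Cdk1. The mitotic kinases had -1.93 for Plk1, -1.86 for Aurka, -2.07 for Nek2 and -2.10 for Ttk, and the passenger complex -1.86 for Aurkb, -1.71 for Birc5 and -1.55 for Cdca8. Checkpoint and APC/C genes had -2.12 for Bub1, -1.84 for Bub1b, -2.06 for Cdc20, -1.75 for Ube2c and -2.03 for Cdca3. Kinetochore genes had -1.95 for Cenpa, -1.71 for Cenpe, -1.95 for Cenpf, -1.98 for Ndc80 and -1.76 for Nuf2. The kinesins had -1.997 for Kif11, -1.97 for Kif20a, -1.92 for Kif23, -1.75 for Kif2c and -2.13 for Kif4. Spindle assembly genes had -1.76 for Tpx2, -1.90 for Nusap1, -1.94 for Hmmr and -1.996 for Dlgap5, and cytokinesis genes -1.97 for Prc1, -1.92 for Racgap1, -2.22 for Ect2 and -2.05 for Anln. Leaving out replicate 2 of the IgG group with both tumors left 12 members with a call: Top2a, Ccnb1, Cdc20, Cenpa, Cenpe, Cenpf, Ndc80, Kif11, Kif4, Tpx2, Dlgap5 and Prc1. That fit called 825 of 16367 genes lower. Leaving out replicate 2 of the therapy group with both tumors left 0 members with a call, with a median of -1.64. In all, 8 of the 12 fits with a single library left out had 0 members called. These 8 fits also called 0 of all tested genes. With the neuron covariate 0 members and 0 of all tested genes were called, and 0 members had an unadjusted p under 0.05.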

How the results depend on the processing

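Across all alternatives run, the median member log2 fold change stayed below 0 for therapy in dual-tumor mice (-1.89 to -1.05), for both tumors under therapy (-2.41 to -1.02) and for the interaction (-2.37 to -0.72). The count for therapy in dual-tumor mice (19 of 36) was 0 with relative log expression size factors, Pmel scaling, pigment gene scaling, no filter, the compared groups alone and the neuron covariate, was 36 with DESeq2 (3133 genes in all, against 858), limma voom (1697) and limma trend on log2(FPKM + 1) (2630), and ran from 0 to 36 with 1 library left out. The fit with the neuron covariate called 0 of all tested genes in every comparison. In it the member count was 0 for both tumors under therapy (median -1.02) and for the interaction (median -0.72). The median for therapy in intracranial-only mice turned to -0.32. The cause was not tested. For both tumors under IgG the median lay between -0.33 and 0.18, with 0 members called under every alternative run. The interaction count ran from 0 to 36 with 1 library left out. For therapy in intracranial-only mice, the compared groups alone called 1 member. On the log2(FPKM + 1) scale, which is another unit, mean member levels were 5.45 and 5.87 under IgG and therapy in intracranial-only mice and 5.39 and 3.92 in dual-tumor mice. Leaving out 1 library, they ran from 6.15 to 6.43, 6.72 to 6.85, 5.97 to 6.46 and 4.30 to 5.15 log2 CPM in the order intracranial-only IgG and therapy, then both tumors IgG and therapy. Single member results were counted only for chosen members and for part of the comparisons. The settings counted were relative log expression size factors, library totals, Pmel scaling and pigment gene scaling. Of these results, 137 kept their side of the threshold and 31 lost it. That count leaves out the neuron covariate and the fits with 1 library left out, so it does not measure stability over all alternatives. No paired analysis was possible because the labels give no replicate numbers. With 3 libraries a group and a biological coefficient of variation of 33.5%, smaller differences than those called may have been missed.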
